A study of Mus musculus with 4 samples.

Results

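Methylation was examined at 10 genes of the lung epithelial lineage: the transcription factor genes Nkx2-1, Foxa1, Foxa2 and Gata6, the neighbour of Nkx2-1 named Sfta3-ps, the surfactant genes Sftpc and Sftpb, the club cell gene Scgb1a1, and the alveolar type 1 cell genes Hopx and Aqp5. They are a listed set of lung epithelial genes among 55413 annotated genes. Of these 10 genes, 7 had at least 1 measured CpG site in a promoter and 10 had at least 1 in the gene body. A promoter was taken as 1000 bp before to 500 bp after every transcription start site (TSS) of the GENCODE basic transcript set, and a gene body as the rest of the annotated gene. TSS of transcripts outside that set, which Foxa1 and Gata6 have further upstream, were used only as an alternative chosen after seeing the data.

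The study compared tumors of 344SQR, an anti-PD1-resistant line, with tumors of its parental line 344SQP, both from a mouse model of lung adenocarcinoma that carries a mutant p53 allele (p53R172HΔg/+). Cells of either line were injected under the skin of the leg of syngeneic female 129Sv/Ev mice aged 12 to 16 weeks. Every mouse whose tumor was used here received anti-PD1 antibody at 10 mg/kg into the peritoneum, in 4 doses from day 4, and tumors were taken 24 h after the last dose. There were 2 tumors of each line and none without anti-PD1, so line and treatment response cannot be told apart.

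DNA was read by reduced representation bisulfite sequencing (RRBS), which cuts DNA at CCGG and counts methylated and unmethylated reads at single CpG sites. Summed coverage over all listed sites was 116794455 and 138331886 reads in 344SQP replicates 1 and 2, and 160548303 and 174689402 in 344SQR replicates 1 and 2. Sites needed at least 20 reads in all 4 tumors, which left 1081201 sites with a mean coverage of 103 and 121 in the 344SQP tumors and 140 and 144 in the 344SQR tumors. Methylation is given as the percent of reads that were methylated, averaged over the sites of a region, and differences are 344SQR minus 344SQP in percentage points. Whole tumors were used, so a change in methylation within a cell type and a change in the share of that cell type cannot be told apart, and RNA was not analysed here.

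Nkx2-1, Foxa1, Foxa2 and Gata6 encode DNA-binding factors that act early in foregut endoderm and later in lung epithelium. Nkx2-1, with Foxa1 and Foxa2, binds control regions of surfactant and secretory genes, and its presence is used to recognise lung adenocarcinoma. Alveolar type 2 cells make surfactant, alveolar type 1 cells form the thin gas exchange surface, and club cells line the small airways. Methylation of CpG-dense promoters is generally associated with silent genes, whereas active genes are often methylated within their bodies.

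Among the members, Sfta3-ps showed the largest difference between the lines, with higher promoter methylation in both 344SQR tumors. The Nkx2-1 gene beside it was higher in parts of its gene. In the window of its upstream TSS it was lower on average in 344SQR, with overlap of the lines. The means of the Foxa1, Foxa2 and Gata6 promoters were below 10% in all 4 tumors, as were those of 57.4% of all promoters. By a site test that combined a likelihood ratio test of each site into a z score per promoter, 6 of the 7 measured member promoters passed a false discovery rate (FDR) of 0.05, against 38.5% of all 20135 promoters tested. The promoters of Nkx2-1, Sfta3-ps and Aqp5 were called higher in 344SQR, which was the case for 8.79% of all promoters. Those of Foxa1, Foxa2 and Hopx were called lower, as were 29.7% of all promoters. The site test adds the reads of the tumors of a line and so leaves out the spread between them. It also combines the sites of a promoter as if they were independent. Neighbouring sites can share reads, and the strands of a CpG count as separate sites, so z and FDR can be too extreme. The tumors of the lines did not overlap at 2 of the 7 member promoters, Sfta3-ps and Foxa2, against 40.1% of all promoters.

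A test that counts the spread between tumors, edgeR's quasi-likelihood test on summed methylated and unmethylated reads, called 0 of the 7 member promoters at an adjusted p under 0.05, and 0.0745% of 20124 promoters in all. At an unadjusted p under 0.05, edgeR listed 1 of the 7 member promoters, Sfta3-ps, and 1769 (8.79%) of the 20124 promoters in all. For gene bodies edgeR called 0 of 10 members, against 0.00529% of 18892 bodies, and 1 of the 10, Hopx, had an unadjusted p under 0.05, against 3339 (17.7%) of the 18892 bodies. The tumors of the lines did not overlap at the gene bodies of 4 members, Nkx2-1, Sfta3-ps, Hopx and Aqp5, against 54.2% of all 18922 bodies.

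**Figure D1:**
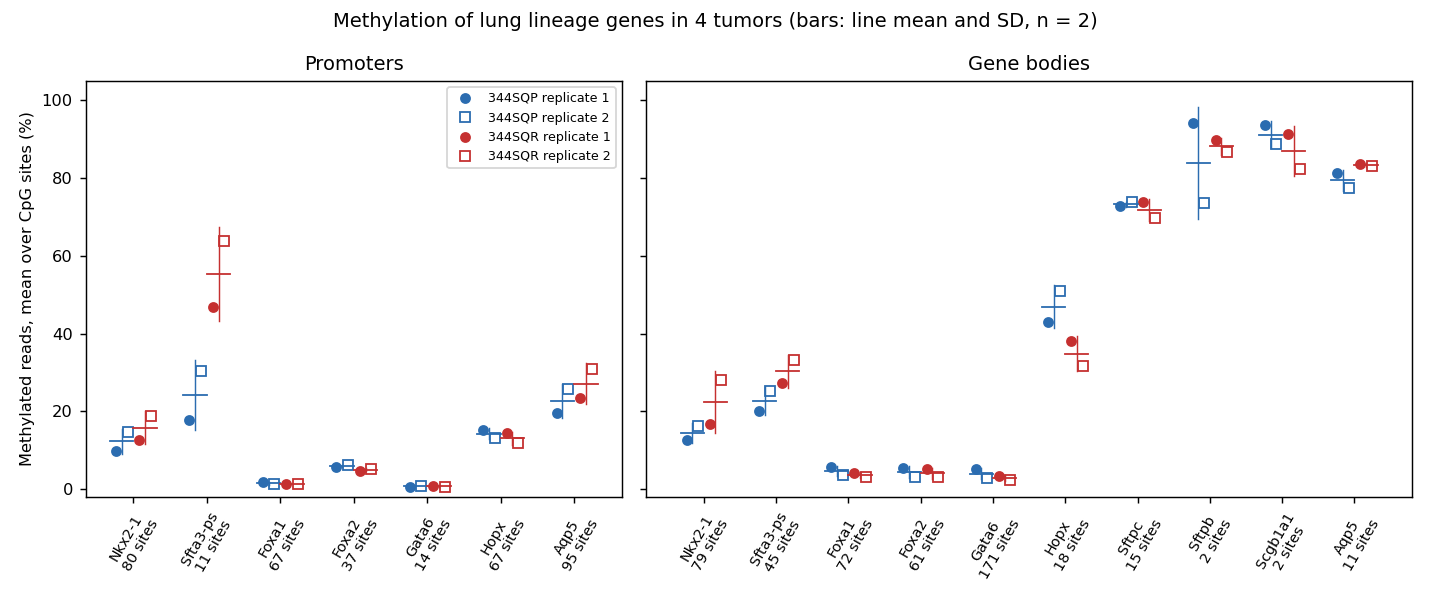
Percent of methylated reads (vertical axis), averaged over the CpG sites of each promoter (left) and gene body (right) of the lung lineage genes, with 1 point per tumor, bars for the line mean and its SD, and the number of sites under each name. The Sfta3-ps promoter lies at 17.7% and 30.4% in 344SQP and at 46.8% and 63.8% in 344SQR, and the promoters of Foxa1, Foxa2 and Gata6 lie below 10% in all 4 tumors.

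Nkx2-1, the homeobox factor that specifies the lung and thyroid, lies on the minus strand at chr12:56531958-56536908 (GRCm38, the same assembly as mm10) and has 2 annotated TSS. Over 80 promoter sites its methylation was 9.87% and 14.5% in the 344SQP tumors and 12.7% and 18.7% in the 344SQR tumors. The lines overlapped, with 344SQR replicate 1 below 344SQP replicate 2. Line means were 12.2% ± 3.30 in 344SQP and 15.7% ± 4.27 in 344SQR (SD, n = 2). The difference of 3.49 points was called by the site test (z = 5.20, FDR 1.00e-06), while edgeR gave a log2 odds ratio of 0.49 ± 0.32 (SE) and an adjusted p of 0.733. Without 344SQP replicate 1 the FDR was 0.719, and without 344SQR replicate 2 it was 0.590 with a z of -0.838. The difference ranged from 0.473 to 6.51 points over the fits that left out 1 tumor.

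The windows around the TSS of Nkx2-1 differed from each other, and with the upstream TSS alone the site test called Nkx2-1 lower in 344SQR (z = -8.77, difference -3.08 points). In the window of the upstream TSS, chr12:56536408-56537908, 36 sites in a 5′ UTR exon had 6.75% and 14.0% in 344SQP and 7.24% and 7.31% in 344SQR. Here a single tumor, 344SQP replicate 2, stood above the other 3, which lay within 1 point of each other. In the window of the inner TSS, chr12:56534606-56536106, 44 sites had 12.4% and 15.004% in 344SQP and 17.1% and 28.0% in 344SQR, and the lines did not overlap. Within it the 22 intron sites held most of the difference, with 13.4% and 18.2% against 22.8% and 38.3%, whereas the 22 coding sites had 11.4% and 11.8% against 11.4% and 17.8% and overlapped. Taken one by one, 26 of the 80 promoter sites were called higher and 15 lower in 344SQR at an adjusted p under 0.05 of the site test. The share of all measured sites called in this way is not given, so these counts and those below are descriptions only.

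The 22 intron sites of the inner window lie on both sides of its coding sites. Those at chr12:56534645-56534675 went both ways, with differences of -2.93 to 6.32 points. A stretch of 86 bases holds the other 15 intron sites, and is shown because all of them were higher on average in 344SQR. It lies 1015 to 1100 bases after the upstream TSS of Nkx2-1, at chr12:56535808-56535893, and is given 5′ to 3′ on the minus strand of GRCm38, with measured CpGs in capitals. The antisense transcript gene Gm26973 also covers it. Its mean methylation was 14.1% and 18.3% in the 344SQP tumors and 27.8% and 47.5% in the 344SQR tumors, at 28 to 261 reads per site. The lines did not overlap, and 344SQR replicate 2 was furthest from the others.
Nkx2-1 intron: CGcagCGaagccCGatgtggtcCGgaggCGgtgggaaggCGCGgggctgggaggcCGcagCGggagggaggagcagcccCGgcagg

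The promoter site of Nkx2-1 with the largest difference lies in this intron at chr12:56535887. There 11 of 56 reads were methylated in 344SQP replicate 1 (19.6%, 95% Wilson interval 11.3 to 31.8) and 7 of 28 in 344SQP replicate 2 (25.0%, 12.7 to 43.4). In 344SQR it was 24 of 52 reads in replicate 1 (46.2%, 33.3 to 59.5) and 38 of 57 in replicate 2 (66.7%, 53.7 to 77.5). Intervals cover counting error only and take each read as an independent molecule. Removal of PCR duplicates is not given, so they may be too narrow. The interval of 344SQR replicate 1 overlaps that of 344SQP replicate 2, and that of 344SQR replicate 2 overlaps neither 344SQP interval. As the site was picked for its difference, this is a description and no test of the lines.

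The gene body of Nkx2-1 held 79 measured sites, 54 coding and 25 intronic, with 12.5% and 16.2% in 344SQP and 16.7% and 27.9% in 344SQR. The lines did not overlap, but 344SQR replicate 1 lay next to 344SQP replicate 2. The difference of 7.98 points had a log2 odds ratio of 0.72 ± 0.37 (SE) and an edgeR adjusted p of 0.337. Coding sites alone had 10.5% and 13.3% against 14.6% and 26.0%, and intron sites 16.8% and 22.4% against 21.3% and 32.0%, where the lines overlapped. At the body site with the largest difference, chr12:56533672 in a coding exon, 6.06%, 7.78% and 15.9% of reads were methylated in 344SQP replicates 1 and 2 and 344SQR replicate 1, and 77.1% in 344SQR replicate 2, where 91 of 118 reads were methylated.

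Sfta3-ps is annotated as a processed transcript without a coding sequence, at chr12:56488321-56529427 on the minus strand, and it starts just downstream of the 3′ end of Nkx2-1. Its promoter window, chr12:56528760-56530427, had 11 measured sites, all in a noncoding exon and all read on the minus strand, at 27 to 147 reads. They were 12.2% of the CpG cytosines of the window and lay 102 to 514 bases after the upstream TSS. Methylation was 17.7% and 30.4% in 344SQP and 46.8% and 63.8% in 344SQR. Both 344SQR tumors were above both 344SQP tumors, and the means were 24.1% ± 9.01 and 55.3% ± 12.1 (SD, n = 2). The difference of 31.2 points exceeded the SD of either line, and each of the 11 sites had a higher mean in 344SQR. The site test called 10 of the 11 sites, and the promoter had z = 17.3 and an FDR of 1.26e-65. The edgeR log2 odds ratio was 1.84 ± 0.58 (SE), with an unadjusted p of 0.0176 and an adjusted p of 0.462. With the TSS of every annotated transcript, an alternative chosen after seeing the data, 3 sites further inside Sfta3-ps joined the promoter, at 71.6% and 65.5% in 344SQP and 61.1% and 43.1% in 344SQR. The difference was then 21.0 points over 14 sites, without overlap, and edgeR's log2 odds ratio was 0.74 ± 0.41 (SE) with an unadjusted p of 0.126. With at least 50 reads, 2 sites were left, with a difference of 18.6 points.

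Of 16692 promoters with at least 5 measured sites, 1 had a larger difference upward in 344SQR than Sfta3-ps, a rank that is a description and not a test. At its site with the largest difference, chr12:56529147, 14 of 69 reads (20.3%, 95% Wilson interval 12.5 to 31.2) and 10 of 48 reads (20.8%, 11.7 to 34.3) were methylated in 344SQP. In 344SQR, 51 of 84 reads (60.7%, 50.0 to 70.5) and 54 of 63 reads (85.7%, 75.0 to 92.3) were methylated. Neither 344SQR interval reached a 344SQP interval at this site. The site was picked for its difference, so the gap is a description and no test of the lines.

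Some of the measured CpGs of Sfta3-ps are shown in 2 stretches, again 5′ to 3′ on the minus strand of GRCm38 with measured CpGs in capitals, because they hold the promoter site and the body site of the gene with the largest differences. The exon stretch, chr12:56529101-56529152, holds 7 sites and begins 275 bases after the upstream TSS, with 16.4% and 26.1% methylation in 344SQP and 47.1% and 69.0% in 344SQR. The intron stretch, chr12:56521045-56521239, holds 19 sites about 8 kb into the gene, with 9.80% and 11.1% in 344SQP and 20.8% and 32.0% in 344SQR. The lines did not overlap in either stretch.
Sfta3-ps noncoding exon: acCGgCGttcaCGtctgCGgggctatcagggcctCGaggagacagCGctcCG
Sfta3-ps intron: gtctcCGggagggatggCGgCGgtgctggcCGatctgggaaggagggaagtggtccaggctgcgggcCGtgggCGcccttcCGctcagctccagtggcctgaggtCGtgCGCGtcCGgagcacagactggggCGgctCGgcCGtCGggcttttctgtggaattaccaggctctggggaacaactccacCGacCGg

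The body of Sfta3-ps held 45 measured sites, all intronic, with 19.97% and 25.2% in 344SQP and 27.3% and 33.2% in 344SQR. The difference of 7.65 points had an edgeR log2 odds ratio of 0.47 ± 0.32 (SE) and an adjusted p of 0.465. The introns were not uniform. The intron group of 20 sites at chr12:56521046-56521318 was higher in 344SQR by 16.0 points, with 19 of the 20 sites higher. A group of 17 sites at chr12:56519716-56520094 had 18.5% and 28.3% in 344SQP and 28.1% and 35.5% in 344SQR, with overlap. The remaining intron groups were lower in 344SQR without overlap, with 34.0% and 45.3% against 29.8% and 21.5% over 5 sites at chr12:56524836-56524973, and 71.6% and 65.5% against 61.1% and 43.1% over 3 sites at chr12:56505294-56505400.

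The locus of Nkx2-1 and Sfta3-ps as a whole was taken from 20 kb before to 20 kb after both genes, chr12:56468321-56556908, where 218 sites were measured. Mean methylation was 14.4% and 19.2% in 344SQP and 19.4% and 27.7% in 344SQR, so the lines did not overlap but 344SQP replicate 2 and 344SQR replicate 1 lay 1 point or less apart. The means were 16.8% ± 3.45 and 23.6% ± 5.85 (SD, n = 2), a difference of 6.77 points. The two-sided exact permutation test over the 4 tumors gave p = 0.333, which is the smallest value it can give. By the site test 89 of the 218 sites were called higher and 27 lower in 344SQR, again without the share over all measured sites beside them. The lines overlapped, with an exact permutation p of 0.667, when at least 50 reads were needed, when strands were summed and when the reads of all sites were pooled. The difference was 2.63 points without 344SQR replicate 2, 4.33 points without 344SQP replicate 1 and 10.9 points without 344SQR replicate 1.

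Within the locus, promoter sites (91), exon sites outside promoters (54) and intron sites (70) were each higher in 344SQR, by 6.85, 8.42 and 7.43 points. The 3 intergenic sites differed the other way. They lie downstream of Sfta3-ps within chr12:56480509-56480565 and had 87.3% and 93.2% in 344SQP against 52.4% and 46.7% in 344SQR, at 52 to 114 reads. All 3 were called lower by the site test, and their line means were 90.3% ± 4.19 and 49.5% ± 4.05 (SD, n = 2). Sorted into runs of at least 3 sites with gaps of at most 500 bp, the locus had 8 groups, of which 3 were higher in 344SQR without overlap, 3 were lower without overlap and 2 overlapped. The intergenic stretch is shown on the minus strand of GRCm38, with its measured CpGs in capitals, as the group of the locus that was lower in 344SQR by the most.
Downstream of Sfta3-ps: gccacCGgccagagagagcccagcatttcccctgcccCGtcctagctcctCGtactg

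**Figure D2:**
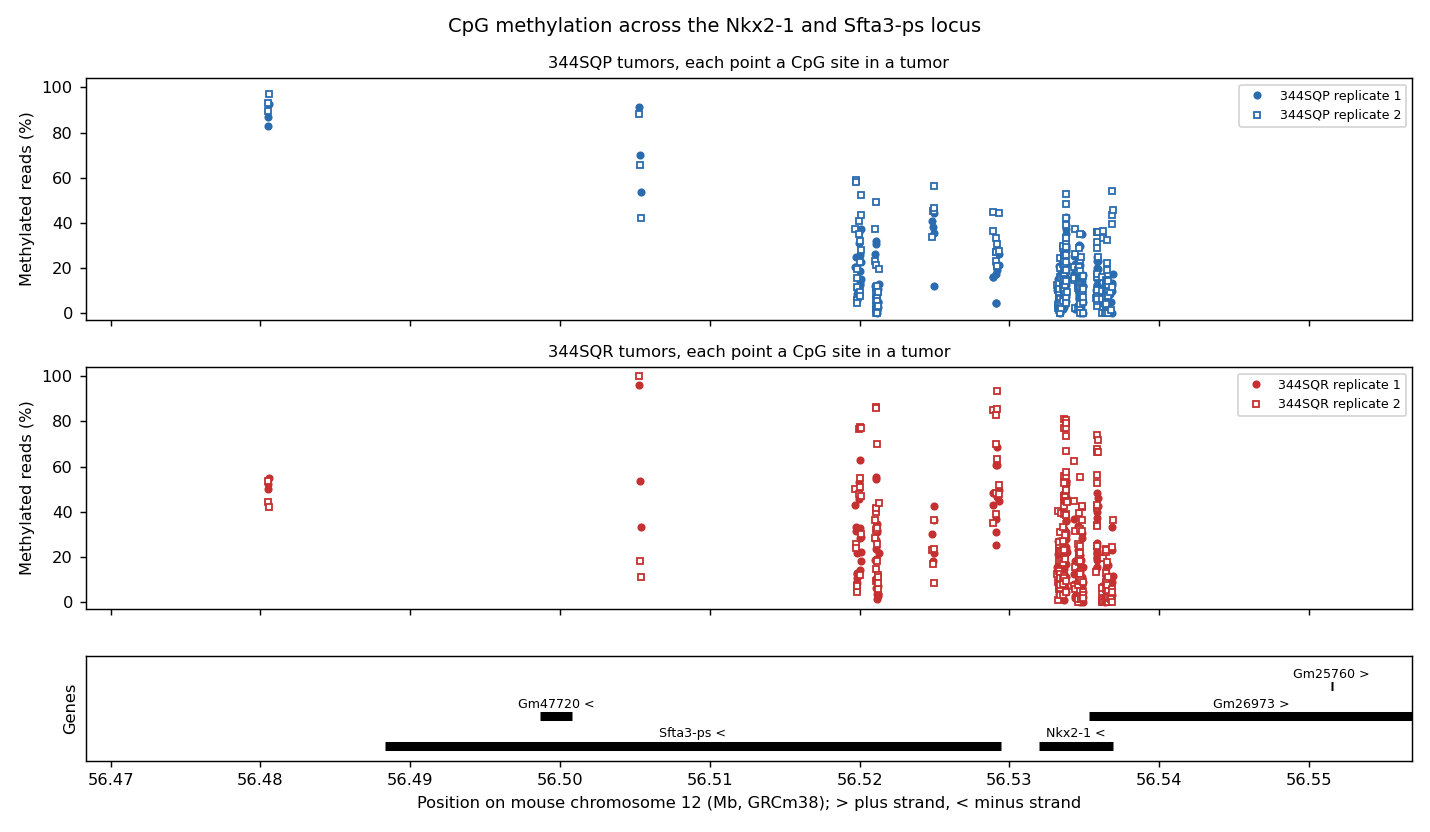
Percent of methylated reads (vertical axis) at each of the 218 CpG sites measured at chr12:56468321-56556908 (horizontal axis, Mb), for the 344SQP tumors (top) and the 344SQR tumors (middle), with annotated genes below. The 11 sites of the Sfta3-ps promoter, all after its upstream TSS, average 24.1% in 344SQP and 55.3% in 344SQR. The 3 sites at the left end average 90.3% in 344SQP and 49.5% in 344SQR.

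Over the wider stretch from Mbip to Pax9, chr12:56328303-56712822, 412 sites had 23.9% and 34.8% in 344SQP and 27.7% and 37.8% in 344SQR. The lines overlapped, and the difference of 3.37 points had an exact permutation p of 0.667. The promoter of Mbip, on the other side of Sfta3-ps, was between 0.929% and 2.04% in all 4 tumors over 13 sites. Nkx2-9, the next homeobox gene beyond Nkx2-1, had 38.5% and 71.6% in 344SQP and 44.0% and 69.98% in 344SQR over 47 sites, where the tumors of a line differed more than the lines did. Sorted in the same way, the wider stretch had 22 groups with those of the locus included, of which 3 were higher in 344SQR without overlap, 8 were lower without overlap and 11 overlapped. A group of 29 intergenic sites before Pax9, chr12:56681207-56681730, was lower in 344SQR without overlap, with 16.7% and 28.7% against 10.1% and 13.4%. Mean coverage of the Nkx2-1 and Sfta3-ps locus was 94.2 and 110 reads in 344SQP and 121 and 142 in 344SQR, without overlap. Relative to the mean over all qualified sites of the same tumor it was 0.911 and 0.906 in 344SQP and 0.864 and 0.984 in 344SQR, with overlap.

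In the promoter of Nkx2-1 the pattern over the 4 tumors was most like that of Brsk2, Slc12a5 and Creb5, among 9635 other protein-coding promoters with at least 20 measured sites. Their mean absolute distance from the 4 Nkx2-1 values was 0.460, 0.491 and 0.516 points. In all, 71 promoters lay within 2 points.

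Foxa1 and Foxa2 encode forkhead factors that open chromatin for Nkx2-1 and other endoderm factors. The Foxa1 promoter, chr12:57545621-57547121, had 1.76% and 1.13% in 344SQP and 1.18% and 1.16% in 344SQR over 67 sites. Its difference of -0.273 points was called lower (z = -2.87, FDR 0.0123), although 344SQP replicate 2 lay below both 344SQR tumors, and the FDR was 0.885 without 344SQP replicate 1. The highest value at any of these sites in any tumor was 14.1%. At chr12:57545911, in a 5′ UTR exon, 4 of 116 and 10 of 173 reads were methylated in 344SQP and 0 of 210 and 0 of 212 in 344SQR, and the Wilson intervals of the 344SQR tumors reach up to 1.80% and 1.78%. The Foxa1 body, 72 sites, had 5.56% and 3.60% in 344SQP and 4.13% and 2.94% in 344SQR, which overlapped (edgeR adjusted p = 0.559).

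The Foxa2 promoter, chr2:148045448-148047969, joins the windows of 2 TSS and had 5.60% and 6.06% in 344SQP and 4.68% and 5.23% in 344SQR over 37 sites. The lines did not overlap, and the difference of -0.875 points was called lower by the site test (z = -4.54, FDR 2.45e-05) but not by edgeR (log2 odds ratio -0.42 ± 0.25 (SE), adjusted p = 0.693). Without 344SQP replicate 1 the FDR was 0.251, with a difference of -1.11 points. Of the 5 sites upstream of the gene, the 3 nearest it were between 0% and 7.43% in all tumors. The other 2, chr2:148047489 and chr2:148047531, were between 50.0% and 82.6% at 20 to 54 reads, while the mean of the 25 intron sites was between 1.17% and 1.62% in each tumor. The Foxa2 body, 61 sites, was at 5.39% and 3.17% against 5.03% and 2.99%, with overlap.

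Gata6, a zinc finger factor of endoderm and lung epithelium, lies on chromosome 18 and had the lowest promoter methylation of the 7 measured members. Its 14 promoter sites had 0.559% and 0.753% in 344SQP and 0.763% and 0.521% in 344SQR, and the lines overlapped (z = 0.955, FDR 0.508). The site test called Gata6 higher with at least 50 reads, over 3 sites (z = 2.82), and lower with the TSS of every annotated transcript, chosen after seeing the data, over 181 sites (z = -7.09), where the lines overlapped. The promoter site chr18:11052829, in an intron, was called higher in 344SQR (site adjusted p = 0.00567), with 1.14% and 0.541% in 344SQP and 4.23% and 4.85% in 344SQR at 175 to 213 reads. On summed reads edgeR gave a log2 odds ratio of 1.28 ± 0.58 (SE) for the promoter, with an unadjusted p of 0.0682 and an adjusted p of 0.609, while the mean over sites differed by -0.0139 points. The Gata6 body had the most sites of any member body, 171, of which 140 were coding, at 5.01% and 2.87% in 344SQP and 3.43% and 2.26% in 344SQR. The lines overlapped, and edgeR's adjusted p was 0.507.

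The surfactant and secretory genes could be described only within the gene. Sftpc and Sftpb encode hydrophobic surfactant proteins of alveolar type 2 cells, with Sftpb also made by club cells, and Scgb1a1 encodes the main secretory protein of club cells. None of their promoters had a site read in all 4 tumors, so no lower coverage minimum would add one. With the TSS of every annotated transcript, an alternative chosen after seeing the data, Sftpc gained 12 sites within the gene, at 81.9% and 78.0% in 344SQP and 82.6% and 75.5% in 344SQR (FDR 0.662 by the site test), and Sftpb and Scgb1a1 gained none. These promoters are poor in CpGs: the windows hold 21 CpGs in Sftpc, 28 in Sftpb and 17 in Scgb1a1, with 1, 3 and 1 CCGG sites, against 45 to 174 CpGs and 5 to 22 CCGG sites in the other 7 members, some of whose windows are longer. The observed to expected CpG ratio was 0.218, 0.229 and 0.190, against 0.385 to 0.806 in the other members. In 344SQR replicate 2, the deepest tumor, the summed coverage of all promoter sites was 4 reads in Sftpc, 33 in Sftpb and 26 in Scgb1a1, and it was 11997 in Nkx2-1.

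Within the genes, mean methylation was 69.8% or more in every tumor at all 3, with 2 measured sites in Sftpb and in Scgb1a1. The median over all gene bodies was 73.8% and 72.7% in 344SQP and 67.0% and 59.99% in 344SQR. Sftpc, at chr14:70520949-70524081, had 72.7% and 73.7% in 344SQP and 73.9% and 69.8% in 344SQR over 15 sites. The lines overlapped, and the difference of -1.40 points had an edgeR adjusted p of 0.976. The mean of the 7 coding sites of Sftpc lay between 83.1% and 90.2% over the tumors, and that of its 2 UTR sites between 27.0% and 43.8%. No line stood apart in any of these sets of Sftpc sites.

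Sftpb, at chr6:72304610-72314371, had 2 measured intron sites, with 94.1% and 73.6% in 344SQP and 89.7% and 86.7% in 344SQR. The low value in 344SQP replicate 2 came from a single site, chr6:72312084, where 42 of 89 reads were methylated (47.2%, 95% Wilson interval 37.2 to 57.5) against 61 of 64 in 344SQP replicate 1 (95.3%, 87.1 to 98.4). Both 344SQR tumors were between these. Scgb1a1, at chr19:9083636-9087958, also had 2 measured intron sites, with 93.7% and 88.7% in 344SQP and 91.4% and 82.3% in 344SQR. The lines overlapped at both genes, and edgeR's adjusted p was 0.725 for Sftpb and 0.996 for Scgb1a1.

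Hopx, an atypical homeodomain protein of alveolar type 1 cells, lies on the minus strand at chr5:77086988-77115121 and has TSS in 2 separate windows. Over all 67 promoter sites it had 15.3% and 13.2% in 344SQP and 14.3% and 11.8% in 344SQR, with overlap. The difference of -1.20 points was called lower by the site test (z = -9.27, FDR 2.10e-19), and the edgeR log2 odds ratio was -0.46 ± 0.22 (SE) with an adjusted p of 0.618. Leaving out 1 tumor moved the difference over -2.43 to 0.0188 points, with the promoter called lower each time. The windows went in opposite directions. At the inner window, chr5:77094753-77096277, 56 sites had 6.27% and 7.76% in 344SQP and 3.04% and 5.13% in 344SQR, without overlap. At the window of the upstream TSS, chr5:77114621-77116121, 11 sites had 61.1% and 40.9% in 344SQP and 71.4% and 45.8% in 344SQR, and replicate 2 was the lower tumor in both lines. With the upstream TSS alone the site test therefore called Hopx higher in 344SQR (z = 5.62).

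The Hopx body had the largest difference of any member body, with 42.9% and 50.9% in 344SQP and 38.0% and 31.6% in 344SQR over 18 intron sites. The means were 46.9% ± 5.61 and 34.8% ± 4.48 (SD, n = 2), the lines did not overlap, and edgeR gave a log2 odds ratio of -0.86 ± 0.35 (SE), an unadjusted p of 0.0367 and an adjusted p of 0.254. Of the 18 sites, 10 were called lower and 0 higher by the site test. The difference was largest in a run of 7 sites, chr5:77097131-77097203, with 71.0% and 73.9% in 344SQP and 55.4% and 43.6% in 344SQR at 136 to 239 reads. That intron stretch, chr5:77097126-77097208, is shown 5′ to 3′ on the minus strand of GRCm38 with measured CpGs in capitals, because it holds the 7 sites of that run.
Hopx intron: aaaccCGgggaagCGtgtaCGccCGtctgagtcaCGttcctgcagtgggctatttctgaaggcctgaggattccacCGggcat

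Aqp5, the water channel of alveolar type 1 cells, lies at chr15:99590782-99594829 on the plus strand, and its promoter window joins those of 4 TSS. Its 95 promoter sites had 19.5% and 25.6% in 344SQP and 23.3% and 30.8% in 344SQR. The lines overlapped, since 344SQR replicate 1 lay below 344SQP replicate 2. The difference of 4.52 points was called higher by the site test (z = 11.9, FDR 2.44e-31), edgeR's log2 odds ratio was 0.27 ± 0.31 (SE) with an adjusted p of 0.849, and the FDR of the site test was 0.913 without 344SQR replicate 2. The difference was 0.796 points without that tumor, 1.45 points without 344SQP replicate 1 and 8.25 points without 344SQR replicate 1. The site of the largest difference in this promoter, chr15:99591218 in a UTR exon, had 33.3% and 47.4% in 344SQP and 64.0% and 86.3% in 344SQR, at 102 to 175 reads. The 12 sites upstream of the gene went the other way on average, with 18.5% and 27.6% against 14.9% and 21.7%, and overlapped.

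The Aqp5 body was highly methylated, with 81.4% and 77.5% in 344SQP and 83.7% and 83.1% in 344SQR over 11 sites, without overlap but with an edgeR adjusted p of 0.506. A group of 3 sites in it, chr15:99592768-99592849, had 59.9% and 60.5% against 73.0% and 70.8%. There the difference of 11.7 points exceeded the spread within either line, whose SDs were 0.389 and 1.52 points.

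Other genes of lung epithelium, a list of 34, had 25 measured promoters, of which 13 were called lower and 1 higher in 344SQR by the site test and 11 were not called, beside 29.7% lower and 8.79% higher of all promoters. The median difference was -0.449 points, beside -0.233 points over all promoters. Free of overlap were 12 lower and 1 higher, beside 40.1% of all promoters in either direction. Among them, Slc34a2, the phosphate transporter of alveolar type 2 cells, had 15.4% and 20.1% in 344SQP and 7.47% and 4.49% in 344SQR (edgeR adjusted p = 0.255). Pdpn, an alveolar type 1 membrane glycoprotein, had 25.8% and 37.9% against 16.8% and 18.6%. Foxp2, Sox9 and Klf5, transcription factors of the developing lung, were lower by smaller amounts, with differences of -4.65, -1.54 and -0.449 points. Cldn18, a tight junction gene of alveolar epithelium, was the 1 promoter called higher, with 91.0% and 92.0% against 96.2% and 96.5% over 5 sites.

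Of 24 genes of gut and other endoderm, 17 promoters were measured, with 6 called lower, 4 higher and 7 not called, beside the same shares of all promoters, and a median difference of -0.309 points. Of the 17, 3 lower and 1 higher were free of overlap, beside 40.1% of all promoters in either direction. Pdx1, a pancreatic and duodenal homeobox factor, had 21.4% and 32.8% in 344SQP against 16.2% and 16.5% in 344SQR, and Gata5, a zinc finger factor of endoderm, 7.03% and 12.2% against 5.26% and 6.99%. The 10 lung lineage members themselves had a median promoter difference of -0.0139 points over the 7 measured. No promoter of any of these lists was called by the edgeR fit described above.

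Markers of other cells in the tumors were mostly unmeasured at their promoters. Of 22 leukocyte markers, 5 promoters were measured with a median of 2 sites, 3 were called lower and 0 higher (29.7% and 8.79% of all promoters), and the median over them was 52.7% and 75.8% in 344SQP and 36.2% and 28.6% in 344SQR, with a median difference of -12.7 points and 1 promoter free of overlap, which was lower (40.1% of all promoters were free of overlap in either direction). Of 18 fibroblast and endothelial markers, 8 were measured, 2 were called lower and 3 higher, beside the same shares of all promoters, and the median was 24.1% and 28.9% against 24.8% and 35.1%, while the median of the differences was -4.57 points and 2 promoters were lower and 0 higher without overlap. For gene bodies, the median in the tumors was 66.1% and 62.2% against 59.7% and 53.8% for 15 leukocyte markers, 73.4% and 66.6% against 57.1% and 50.6% for 15 fibroblast and endothelial markers, and 73.8% and 72.7% against 67.0% and 59.99% for all bodies. The median of the body differences was -8.03 points for leukocyte markers and -7.71 points for fibroblast and endothelial markers, against -3.12 points over all bodies. Free of overlap were 8 lower and 1 higher leukocyte marker bodies, and 10 lower and 0 higher fibroblast and endothelial marker bodies, beside 54.2% of all bodies in either direction. The part of cell composition in the differences at Nkx2-1, Sfta3-ps and the other members was not tested.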

How the data were processed

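RRBS libraries of 4 tumors were sequenced as single reads of 50 bases. Part of the genotype of the lines is not reported here. Per the submitters' processing notes, reads were trimmed with Trim Galore 0.4.1 and cutadapt 1.9.1 and mapped to mm10 with Bismark and Bowtie 1.1.2. The authors deposited, for each CpG cytosine, its read count (coverage) and the percent of methylated and unmethylated reads; removal of PCR duplicates is not given in the sources used here. Methylated reads were recomputed from coverage and percent. All qualified sites lay at a CG of GRCm38, and 29.0% lay inside CCGG. Genes and TSS came from the basic set of GENCODE vM21, and sequences from RefSeq's GRCm38.p6.

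The site test was a likelihood ratio test per site on the reads of each line, with p floored at 2.2e-16, combined as a signed Stouffer z per promoter. Promoters and gene bodies were also tested with edgeR 4.0.16 (quasi-likelihood test with an effect for each tumor) in R 4.3.3. The SE of each log2 odds ratio was derived as its absolute value divided by the square root of the F statistic of that test. FDRs and adjusted p-values are by Benjamini-Hochberg over all promoters, over all gene bodies or, for single sites, over all qualified sites; other p-values are unadjusted. Tests are two-sided. Tumors of a line were identical at 0.454% (344SQP) and 0.370% (344SQR) of sites, meaning the same coverage and the same methylated reads, and were counted as separate. The exact permutation test of 2 against 2 tumors cannot go below p = 0.333. All members are described. From each other list, up to 5 promoters per direction with the largest differences were named, among those with at least 5 sites, an FDR under 0.05 and no overlap. Members and lists were chosen with earlier results of these data known.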

Additional observations from a re-analysis of the deposited data

How the results depend on the processing

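The number of member promoters called by the site test lay between 4 and 7 when the coverage minimum was 10 or 50, strands were summed, reads were thinned to equal depth, CCGG sites were left out, Fisher's exact test was used, z had no sign, only the upstream TSS was taken, or the TSS of every annotated transcript were taken (chosen after seeing the data; 7 called of 8 measured). Leaving out a tumor gave 3 to 6, with 3 (Sfta3-ps, Hopx and Aqp5) without 344SQP replicate 1 and 4 without 344SQR replicate 2. Sfta3-ps was called higher under all 14 alternatives. With the upstream TSS alone, z was -8.77 for Nkx2-1 and 5.62 for Hopx, because their inner windows were left out. Without a tumor, z ranged from -0.838 to 9.28 for Nkx2-1 and from -3.37 to 0.248 for Foxa1. Gata6 was called with at least 50 reads, over 3 sites (z = 2.82), and with every annotated TSS it was called lower, over 181 sites (z = -7.09).

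edgeR called 0 member promoters and 0 member bodies under every alternative without a replicate block, and limma called 0 member promoters (2 at an unadjusted p under 0.05). At an unadjusted p under 0.05, edgeR listed 3 member promoters with at least 50 reads, 2 after thinning and 0 with every annotated TSS. That list also changed when a tumor was left out. When a line kept 1 tumor, it was assumed to vary like the other line. Over all promoters edgeR called 15, against 2 after thinning, 70 without CCGG sites, 7 with every annotated TSS and 0 to 27 without a tumor; limma called 0. Over all bodies it called 1, against 0 to 99 without a tumor. The locus difference of 6.77 points ranged from 2.63 to 10.9 without a tumor and from 3.37 (Mbip to Pax9) to 7.63 (without CCGG sites) otherwise. The causes were not tested.

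The lines share the replicate numbers 1 and 2, but the tumors came from different mice. Deviations of same-numbered tumors correlated across promoters (r = 0.663; promoters are not independent). With the number as a replicate block, edgeR called 1 member promoter (Sfta3-ps) and 3 member bodies (Nkx2-1, Gata6 and Hopx). In all, the blocked fit called 2444 promoters (12.1%) and 4293 bodies (22.7%). Among these were 5 promoters each of the other lung epithelial genes (Slc34a2, Sox9 and Pdpn among them) and the gut and endoderm genes (Gata5 and Pdx1 among them), 1 leukocyte marker and 1 endothelial marker. The Mantel-Haenszel test called 6 member promoters and 37.5% of all. The locus difference was 6.77 points, with an exact sign test p of 0.500.

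Coverage was 20 to 389 reads at the measured promoter and body sites of the members, which limits single sites. With 2 tumors a line, the spread between tumors limits both single sites and regional means.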

Other observations

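Replicate 2 was above replicate 1 in both lines at the promoters of Nkx2-1, Sfta3-ps, Foxa2 and Aqp5, and below it in both at those of Foxa1 and Hopx. Over all promoters, this held for 36.1% and 25.6%. At the gene bodies of Nkx2-1 and Sfta3-ps, replicate 2 was above replicate 1 in both lines, which held for 22.8% of all bodies. At those of Foxa1, Foxa2, Gata6, Sftpb, Aqp5 and Scgb1a1, replicate 2 was below replicate 1 in both lines, which held for 40.4% of all bodies. The labels do not say what the replicate number stands for beyond the tumor.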
